A study of Mus musculus with 54 samples.

Results

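The gene expression of the mouse suprachiasmatic nucleus (SCN), the master circadian clock of the brain, was compared between ZT2, which is 2 hr after lights on, and ZT14, which is 2 hr after lights off. The comparison rests on 6 of the 18 libraries of the study, namely the 3 replicates A, B and C collected at each of these timepoints, and was chosen by the sampling time given in the labels. Each replicate is a pool of SCN tissue from 5 male C3H/HeH mice of 10 to 12 weeks, taken by laser-capture microdissection, and the libraries of all timepoints share this strain, sex, age range, dissection and cDNA amplification from very small amounts of RNA. The animals lived under 12 hr of light at 150 lux and 12 hr of darkness, so ZT2 and ZT14 lie 12 hr apart, the first in light and the second in darkness. No genotype or drug differed between the groups. The other 4 timepoints of the study (ZT6, ZT10, ZT18 and ZT22) were used for the estimate of the spread, and ZT18 and ZT22 for a second comparison described below.

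Neurons of the SCN keep time through a loop in which CLOCK and BMAL1 (encoded by *Arntl*) activate *Per* and *Cry* genes, whose proteins then repress that activation. Nuclear receptors of the REV-ERB and ROR families and factors that bind D-boxes form further loops around it. Light reaching the retina resets the loop through glutamate and PACAP, which raise calcium and cyclic AMP in SCN neurons and switch on immediate early genes, and the neurons pass time on to the rest of the brain through peptides such as VIP, AVP and prokineticin 2.

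Between 17740695 and 25527093 reads were counted on genes in the ZT2 libraries and between 32549849 and 35820945 in the ZT14 libraries. Mitochondrially encoded genes took 3.18% to 4.51% of the reads at ZT2 and 2.75% to 4.62% at ZT14. In a principal component analysis of the 500 most variable genes, replicates of a timepoint lay 9.14 (ZT2) and 7.41 (ZT14) units apart by the median, while ZT2 lay 56.1 units from ZT14 and 11.6 from ZT22. ZT2 thus lay in a cluster with ZT22. ZT14 lay next to ZT18 replicates A and B, at 5.48 and 3.97 units, but 31.4 units from ZT18 replicate C. That library stood apart, with 15412981 reads, the fewest of the 18, and 6.86% of reads from mitochondrially encoded genes. It enters the estimate of the spread and the comparison of ZT22 with ZT18, and without it 5247 genes differed between ZT2 and ZT14 (against 4508) and 3258 between ZT22 and ZT18 (against 3435). The study names sequencing batch as well as time as a source of this separation. From its clock gene profiles it judges batch effects to be minimal, and it reports high concordance with qPCR of the SCN samples. The batch of each library is not given in the sources used here, so batch and time of day cannot be told apart between ZT2 and ZT14. Levels are given as CPM, that is read counts scaled to the library total, after TMM scaling, in the order of replicates A, B and C. Differences are log2 ZT2 minus ZT14 with their standard error (SE), so that a positive value is higher at ZT2. In bulk tissue, fewer cells of a type and less RNA per cell cannot be told apart.

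The tissue carried the defining genes of the SCN at both timepoints, and no listed marker of SCN neurons was at 0. The summed level of 17 SCN neuron markers was 5179 to 7057 CPM at ZT2 and 3558 to 4870 CPM at ZT14. Its members went both ways, with 5 called higher at ZT2 (*Prok2*, *Nms*, *Vip*, *Rorb* and *Six3*). A further 4 were called higher at ZT14 (*Avp*, *Grp*, *Avpr1a* and *Six6*) and 8 were not called. Summed markers of astrocytes were also higher at ZT2 without overlap (7319 to 8955 against 4718 to 6076 CPM), as were those of endothelial cells and pericytes (583 to 1071 against 449 to 486 CPM). Of the 14 endothelial and pericyte markers, however, 2 were called higher at ZT2, 2 were called higher at ZT14 and 10 were not called. Markers of oligodendrocytes were lower at ZT2, at 2297 to 4613 CPM against 4940 to 6144 CPM. Markers of telencephalic excitatory neurons, leaving out *Rorb*, which the SCN itself expresses, summed to 564 to 725 CPM at ZT2 and 1358 to 2081 CPM at ZT14. The planned list holds *Rorb*, which was called higher at ZT2. With it the sums overlapped, at 1666 to 1881 CPM and 1663 to 2439 CPM (exact two-sided permutation p = 0.4). Peptides of neighbouring hypothalamic nuclei were also lower at ZT2, at 92.8 to 130 CPM against 154 to 213 CPM, with 0 of 11 called, and so were markers of oligodendrocyte precursors, at 157 to 179 CPM against 236 to 257 CPM. With 3 libraries a side, the exact two-sided permutation p of each sum given here without overlap was 0.1, the smallest that the design allows. The part of these cell type markers in the gene differences below was not tested.

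Of 18941 genes tested, 4508 (23.8%) differed between ZT2 and ZT14 at an adjusted p under 0.05, of which 1666 (8.80%) were higher at ZT2 and 2842 (15.0%) were higher at ZT14. The differences towards ZT14 were the larger ones. The median log2 difference was 0.91 among genes higher at ZT2 and -1.79 among genes higher at ZT14, and a log2 difference of at least 2 was found for 91 and 1204 of them, respectively. The 3 libraries of ZT2 did not overlap with those of ZT14 for 9111 genes (48.1%), among them 4463 of the genes that passed the test. Protein-coding genes made up 3974 of the called genes, 26.3% of those tested. Of 227 annotated lincRNAs, 7 were higher at ZT2 and 4 at ZT14.

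The direction of the split depends on the scaling between libraries. Genes higher at ZT2 were 37.0% of those called under TMM scaling, 45.8% under the size factors of DESeq2 and 51.9% under upper-quartile scaling, which moved the median difference of all genes up by 0.12 and 0.21, respectively. The count of genes higher at ZT2 also rested in part on ZT2 replicate A, without which it was 1088.

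Of 21 core clock genes tested, 4 were higher at ZT2, 5 were higher at ZT14 and 12 did not pass the test, so that 42.9% were called against 23.8% of all genes. The libraries of the timepoints did not overlap for 13 of the 21 (48.1% of all genes did not overlap). The genes higher at ZT2 were *Bhlhe41*, *Nr1d2*, *Rorb* and *Dbp*, and those higher at ZT14 were *Arntl*, *Per1*, *Per2*, *Cry2* and *Nfil3*. Among the activators, *Arntl* stood at 31.3, 29.0 and 19.2 CPM at ZT2 and at 72, 37.7 and 46.0 CPM at ZT14. The ranges were apart, and the difference was -0.97 ± 0.26 (adjusted p = 0.0106). The call was lost without ZT14 replicate A (adjusted p = 0.0914) and without ZT2 replicate C (0.0998). *Clock*, the partner of BMAL1, did not pass the test (0.08, adjusted p = 0.851). *Npas2*, a relative of *Clock*, stood at 4.18, 4.52 and 4.24 CPM at ZT2 and at 10.1, 10.8 and 9.84 CPM at ZT14 without passing it (-1.25 ± 0.49, adjusted p = 0.0733).

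**Figure D1:**
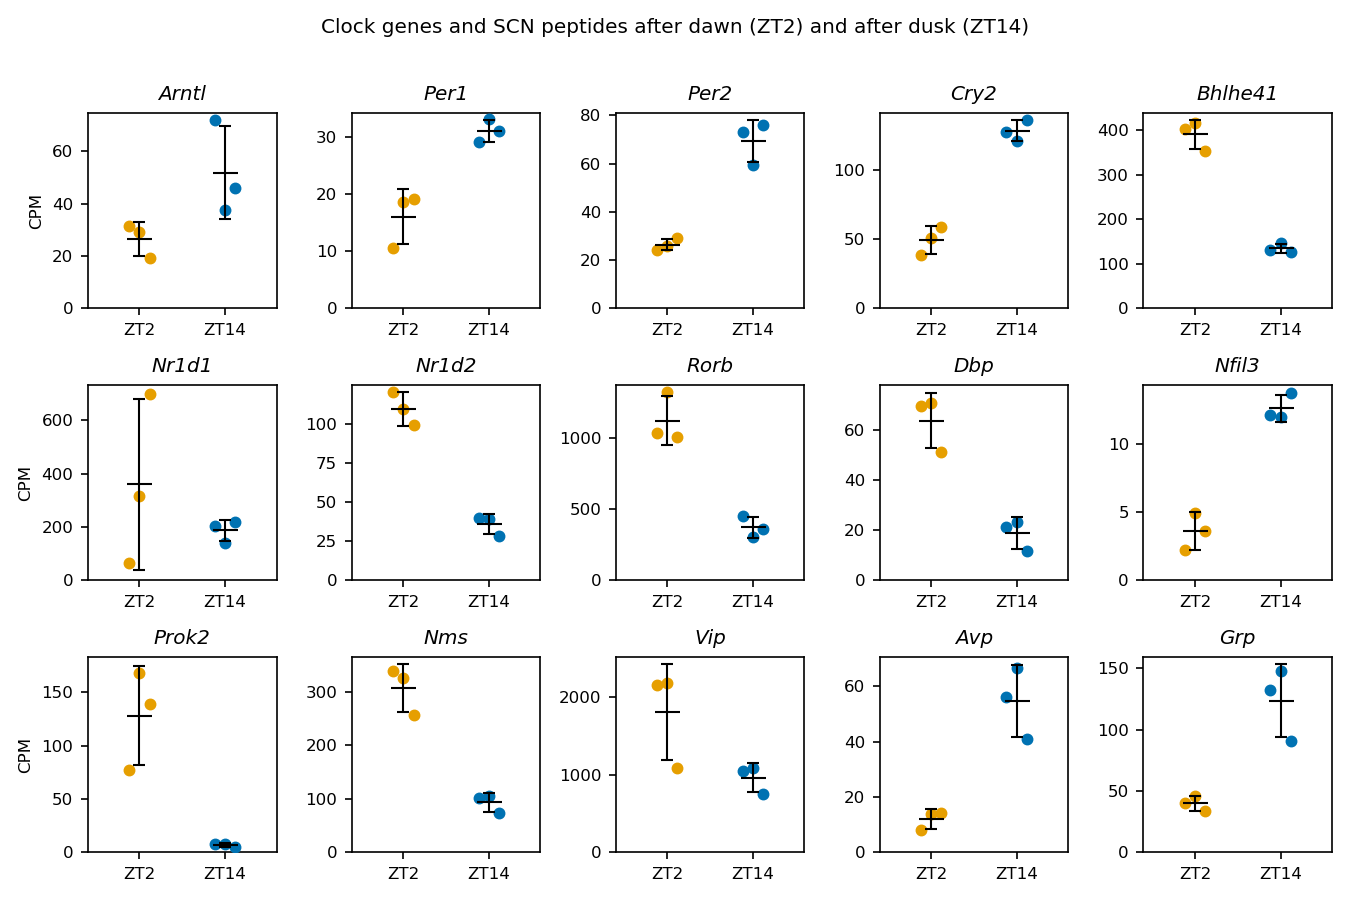
Level of 10 clock genes and 5 SCN peptides in CPM (vertical axes from 0) in each ZT2 and ZT14 library, with points for the 3 replicates and a bar with whiskers for their mean ± SD. *Dbp*, *Nr1d2*, *Rorb*, *Bhlhe41*, *Prok2* and *Nms* are higher at ZT2 without overlap, *Per2*, *Cry2*, *Avp* and *Grp* are higher at ZT14 without overlap, and *Nr1d1* spreads from 64.4 to 699 CPM within ZT2.

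Among the repressors, *Per2* had 24.4, 25.8 and 29.0 CPM at ZT2 and 73.0, 59.6 and 76.0 CPM at ZT14 (-1.40 ± 0.29, adjusted p = 0.00158). *Cry2*, which encodes a partner of the PER proteins, had 38.6, 50.7 and 58.6 CPM at ZT2 and 127, 121 and 136 CPM at ZT14 (-1.38 ± 0.30, adjusted p = 0.00267). Every ZT14 library was above every ZT2 library for both. *Per1*, the *Per* gene that light induces most quickly, was at 10.5, 18.5 and 19.1 CPM at ZT2 and at 29.1, 33.0 and 31.0 CPM at ZT14 (-0.95 ± 0.29, adjusted p = 0.0216). The libraries of *Per1* did not overlap, but the call was lost without ZT14 replicate B (adjusted p = 0.0633) or C (0.0505) and without ZT2 replicate A (0.11) or C (0.0515). *Per1* was also lost with upper-quartile scaling (0.059) and no filter (0.0549), and turned in sign with the GC offset (0.32, adjusted p = 0.557). *Per2* was lost with the GC offset too (-0.92, adjusted p = 0.0676). *Per3* (-0.65, adjusted p = 0.217), *Cry1* (-0.34, 0.38), *Bhlhe40* and *Ciart* did not pass the test. *Bhlhe41* (DEC2), which represses E-box genes, went the other way from the *Per* and *Cry* genes that passed. Its level was 403, 416 and 353 CPM at ZT2 and 132, 146 and 126 CPM at ZT14 (1.53 ± 0.28, adjusted p = 0.000519).

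Of 5 REV-ERB and ROR receptor genes, 2 were higher at ZT2 and 3 did not pass the test, and of 4 D-box factors 1 was higher at each timepoint and 2 did not pass. *Nr1d2* (REV-ERB beta), a repressor of *Arntl*, had 120, 109 and 98.8 CPM at ZT2 and 40.0, 38.9 and 28.5 CPM at ZT14 (1.61 ± 0.32, adjusted p = 0.00116). *Rorb*, an activator on the same sites, had 1033, 1317 and 1006 CPM at ZT2 and 453, 305 and 358 CPM at ZT14 (1.59 ± 0.23, adjusted p = 6.15e-05). Both were separated between the timepoints. *Nr1d1* (REV-ERB alpha) stood at 64.4, 315 and 699 CPM at ZT2 and 203, 141 and 217 CPM at ZT14, so its ZT2 libraries enclosed those of ZT14 and no difference could be called (0.94 ± 0.69, adjusted p = 0.362). *Rora* (0.23, adjusted p = 0.391) did not pass the test. *Dbp*, an activator of D-box genes, had 69.8, 70.8 and 51.2 CPM at ZT2 and 21.4, 23.5 and 11.7 CPM at ZT14 (1.76 ± 0.25, adjusted p = 4.85e-05). Part of its exons overlaps *Sphk2* on the other strand, and the sources used here do not say whether strand was kept. *Nfil3* (E4BP4), which represses the same D-box genes, had 2.26, 4.99 and 3.66 CPM at ZT2 and 12.2, 12.0 and 13.8 CPM at ZT14 (-1.79 ± 0.55, adjusted p = 0.0243). Without ZT14 replicate A or C, or ZT2 replicate A or C, *Nfil3* did not pass (adjusted p from 0.051 to 0.107). Of the other D-box factors, *Hlf* (-0.32) and *Tef* (0.16) did not pass the test. Among 12 genes for the turnover of clock proteins 25% were called, near the 23.8% of all genes. The AMPK subunit *Prkaa2* (1.19) was higher at ZT2, and the deubiquitinase *Usp2* (-0.87) was higher at ZT14. *Usp2* lost its call without ZT14 replicate A, B or C or ZT2 replicate A (adjusted p from 0.0608 to 0.157), and with size factors (0.0502), upper-quartile scaling (0.0813), no filter (0.0511) and the GC offset (0.135). The other AMPK subunit *Prkaa1* (0.80) was also higher at ZT2.

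Promoters of the called clock genes and peptides were searched for clock motifs in the RefSeq table (GRCm38.p6), from 250 bases before to 50 bases after the start of each gene, on both strands. Among the genes shown, the E-box CACGTG, the site of CLOCK and BMAL1, lay upstream of genes higher at ZT2 (*Prok2*, *Bhlhe41*) and of genes higher at ZT14 (*Avp*, *Per1*). The 4 stretches are printed 5′ to 3′ on the strand of the gene to show the motif, in capitals, in its context. In the order printed they lie at chr6:99726512-99726537 (minus strand, motif 135 bases before the start), chr2:130582712-130582737 (minus, 139 bases), chr6:145865558-145865583 (minus, 153 bases) and chr11:69098773-69098798 (plus, 166 bases).
Prok2: gggcgcggggCACGTGcgcgtgtgcg
Avp: ctgacaggccCACGTGtgtccccaga
Bhlhe41: gtacgttccgCACGTGagctgggtgc
Per1: cacccaagtcCACGTGcagggatgtg

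The E-box was held by 10.8% of the promoters of 12419 tested genes, by 11.9% of 1253 promoters of genes higher at ZT2 and by 12.4% of 1958 promoters of genes higher at ZT14. The D-box (TTATGTAA or TTACGTAA) was held by 0.974%, 0.958% and 0.766% of these sets, the RORE core TAGGTCA by 2.39%, 2.23% and 1.79%, and the full CRE TGACGTCA by 3.16%, 4.23% and 3.27%. The shorter CRE core TGACG, which the full CRE contains, was held by 32.1%, 38.0% and 36.6%. A match is a description of letters and not a sign of binding, and the shares were not tested.

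Of 20 SCN peptides and related secretory genes, 5 were higher at ZT2 (*Prok2*, *Nms*, *Scg2*, *Vip* and *Nts*), 7 were higher at ZT14 (*Pcsk1n*, *Penk*, *Adcyap1*, *Sst*, *Avp*, *Grp* and *Vgf*) and 8 did not pass the test. The called share was 60% against 23.8% of all genes, and the median difference was -0.89 against -0.05 over all genes. With the GC offset 4 of the list were higher at ZT2 and 4 at ZT14, and its median was -0.012. *Prok2*, an output peptide of the SCN that inhibits daytime activity in nocturnal rodents, had the largest log2 difference towards ZT2 among the genes named by size. It stood at 77.1, 168 and 139 CPM at ZT2 and at 8.14, 7.52 and 4.70 CPM at ZT14 (4.24 ± 0.51, adjusted p = 9.46e-06). The lowest ZT2 library was thus well above the highest ZT14 library. *Prok2* lies at chr6:99711299-99726392 on the minus strand (GRCm38), and its upstream 250 bases, which hold the E-box given above, are GC-rich (73.6% G or C).
Prok2 upstream, chr6:99726393-99726642, minus strand: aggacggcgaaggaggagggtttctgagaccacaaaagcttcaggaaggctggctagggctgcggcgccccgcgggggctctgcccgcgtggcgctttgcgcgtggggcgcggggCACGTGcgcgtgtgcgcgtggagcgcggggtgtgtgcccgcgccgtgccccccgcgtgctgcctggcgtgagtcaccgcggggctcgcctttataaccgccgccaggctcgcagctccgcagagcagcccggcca

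*Nms*, which encodes neuromedin S of SCN pacemaker neurons, had 339, 326 and 257 CPM at ZT2 and 102, 106 and 73.0 CPM at ZT14 (1.71 ± 0.20, adjusted p = 6.44e-06). *Scg2*, a secretogranin of dense-core vesicles, was also separated, with 7429, 10139 and 6226 CPM against 3866, 3113 and 2807 CPM (1.28 ± 0.19, adjusted p = 0.0001). *Vip*, the coupling peptide of the light-receiving core of the SCN, had 2148, 2184 and 1087 CPM at ZT2 and 1053, 1090 and 747 CPM at ZT14 (0.91 ± 0.25, adjusted p = 0.0121). Here ZT2 replicate C lay within the range of ZT14, and the call was lost without ZT14 replicate C, ZT2 replicate A or ZT2 replicate B (adjusted p from 0.0632 to 0.0683). *Nts* (neurotensin) was at 6.15 to 13.2 CPM at ZT2 and at 1.24 to 3.57 CPM at ZT14 (2.02 ± 0.59, adjusted p = 0.0178), and was lost without ZT14 replicate A or C or ZT2 replicate A (adjusted p from 0.0575 to 0.0827).

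Towards ZT14, *Avp*, the peptide of the SCN shell, had 8.09, 13.9 and 14.2 CPM at ZT2 and 56.2, 66.6 and 40.8 CPM at ZT14 (-2.17 ± 0.32, adjusted p = 6.93e-05). *Grp*, which encodes gastrin-releasing peptide of the core, had 40.5, 46.0 and 33.9 CPM at ZT2 and 132, 148 and 90.8 CPM at ZT14 (-1.62 ± 0.28, adjusted p = 0.000333). Neither gene overlapped between the timepoints. *Pcsk1n*, an inhibitor of the prohormone convertase PC1, had 5.94, 7.45 and 6.09 CPM against 94.0, 102 and 78.5 CPM (-3.82 ± 0.18, adjusted p = 5.1e-10). *Penk* (proenkephalin) had 73.7, 74.0 and 76.3 CPM at ZT2 and 1226, 1392 and 171 CPM at ZT14 (-3.64 ± 0.62, adjusted p = 0.000313), so its 3 ZT14 libraries differed by far more than those of ZT2. If strand was not used, the count of *Penk* can hold reads of the overlapping gene *A830012C17Rik*. *Sst* (somatostatin) had 6.05, 12.6 and 86.3 CPM against 176, 169 and 203 CPM (-2.38 ± 0.83, adjusted p = 0.0465). The *Sst* call was lost in 12 of the 18 fits that left out 1 library, with an adjusted p of up to 0.163 without ZT2 replicate B. *Adcyap1*, which encodes PACAP, was at 1.81 to 3.27 CPM at ZT2 and 9.78 to 15.2 CPM at ZT14 (-2.41 ± 0.67, adjusted p = 0.013), and was lost without ZT2 replicate A (0.062) or C (0.0518). *Vgf*, a secreted neuronal protein, was also higher at ZT14 (-1.18 ± 0.26, adjusted p = 0.00244). With the GC offset *Avp* (-0.51, adjusted p = 0.225), *Sst* (-1.77, 0.113) and *Vgf* (0.44, 0.266) lost their calls, and *Vgf* turned in sign. *Tac1* and *Pdyn* were high in ZT14 replicates A and B only, with 98.3, 106 and 15.0 CPM for *Tac1* and 47.8, 47.6 and 20.5 CPM for *Pdyn*, and neither passed the test (adjusted p = 0.184 and 0.521).

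Among 23 receptors for these peptides and for inputs to the SCN, 0 were higher at ZT2 and 3 were higher at ZT14. The called share of 13% was thus below the 23.8% of all genes, of which 15.0% were higher at ZT14. *Avpr1a*, the main vasopressin receptor of the SCN, had 12.5, 14.2 and 8.98 CPM at ZT2 and 41.6, 36.5 and 35.4 CPM at ZT14 (-1.67, adjusted p = 0.00615). The muscarinic receptors *Chrm1* (-2.18, adjusted p = 0.0145) and *Chrm4* (-3.28, adjusted p = 0.0103) were the others, and *Chrm1* was lost without ZT2 replicate A (0.0748) or B (0.0698). Of 19 transcription factors of SCN development and identity, the helix-loop-helix inhibitors *Id1* (-3.34) and *Id3* (-3.16) were higher at ZT14, while their relative *Id2* (1.04), an inhibitor with a role in the clock, was higher at ZT2. *Id1* had 2.66, 2.19 and 2.04 CPM at ZT2 and 24.1, 24.2 and 21.3 CPM at ZT14, and *Id2* had 508, 427 and 337 CPM at ZT2 and 213, 167 and 237 CPM at ZT14. The homeobox factor *Six6* (-0.67, adjusted p = 0.0397) was higher at ZT14 but was lost in 5 of the fits that left out 1 library, while its relative *Six3* (0.65) and *Rorb*, given above, were higher at ZT2.

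Immediate early genes, which neurons switch on within minutes of a stimulus, split in both directions, and most of those that passed were higher after dusk. Of 40 such genes tested, 6 were higher at ZT2, 15 were higher at ZT14 and 19 did not pass, so that 52.5% were called against 23.8% of all genes. The libraries did not overlap for 30 of the 40, against 48.1% of all genes. The median difference over the list was -1.05 against -0.05 over all genes. With the GC offset 8 of the list were higher at ZT2 and 10 at ZT14, and its median was -0.54. The activity-dependent factor *Npas4* had 1 read in the 3 ZT2 libraries together and 572 in the ZT14 libraries, a ratio of CPM of 359 with an exact 95% counting interval from 64.1 to 14187 (adjusted p = 0.00128). *Arc*, a synaptic regulator, had 1.7, 4.73 and 7.09 CPM at ZT2 and 298, 94.8 and 235 CPM at ZT14 (-5.52 ± 0.60, adjusted p = 3.1e-06). *Gadd45g*, a stress-response gene, had 1.98, 3.57 and 3.28 CPM against 253, 193 and 156 CPM (-6.08 ± 0.42, adjusted p = 1.93e-08). *Rasd1* (Dexras1), which tunes the response of the SCN to light, had 13.8, 40.1 and 115 CPM against 1717, 1227 and 940 CPM (-4.53 ± 0.71, adjusted p = 0.000133). No library of either timepoint overlapped for these 4 genes. *Egr3* (-5.26), *Gadd45b* (-4.34), *Junb* (-3.25), *Dusp6* (-2.96), *Nr4a1* (-2.29), *Jun* (-1.39), *Klf6* (-1.31), *Egr1* (-1.06) and *Jund* (-0.87) were also higher at ZT14, next to *Per1* and *Nfil3*. *Jun* was lost without ZT14 replicate B (adjusted p = 0.074), and *Egr1* without ZT14 replicate A or C or ZT2 replicate A or C (0.0606 to 0.221). *Jund* shares exonic sequence with *Gm11175*, and with the GC offset it was called in the other direction, higher at ZT2 (0.86, adjusted p = 0.00424).

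The 6 that were higher at ZT2 have in part a role in ending such responses. *Crem*, whose ICER product represses cyclic AMP targets, had 107, 87.0 and 69.6 CPM at ZT2 and 29.2, 31.6 and 21.9 CPM at ZT14 (1.67 ± 0.24, adjusted p = 4.89e-05). *Sik1*, a kinase that limits the effect of light on the clock, had 29.6, 40.6 and 30.8 CPM against 14.5, 10.3 and 9.24 CPM (1.57 ± 0.29, adjusted p = 0.000658). *Fosl2*, an AP-1 subunit, had 56.0, 88.7 and 66.1 CPM against 15.8, 17.7 and 15.2 CPM (2.11 ± 0.30, adjusted p = 5.72e-05). The phosphatases *Dusp4* (2.60) and *Dusp1* (1.37) and the antiproliferative gene *Btg2* (1.25) were the others. *Fos* itself had 9.27, 23.8 and 42.2 CPM at ZT2 and 34.7, 20.4 and 38.0 CPM at ZT14, so its libraries overlapped (adjusted p = 0.715). Of 11 genes of the CREB pathway, 2 were higher at ZT2 and 2 at ZT14, so that 36.4% were called against 23.8% of all genes. Among those higher at ZT14 was the coactivator *Crtc1* with 2.43, 5.12 and 9.06 CPM against 160, 140 and 143 CPM (-4.73). Among 18 RGS genes, which shorten G protein signals, *Rgs16* was higher at ZT2, with 125, 243 and 225 CPM against 71.9, 68.7 and 57.4 CPM (1.58 ± 0.22, adjusted p = 4.03e-05). *Rgs14* was higher at ZT14 (-2.53), and over the list, whose median was -0.58, 2 were higher at ZT2 and 7 at ZT14 (50% called).

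The 5 smallest p-values towards ZT14 among genes without overlap were those of *Cox6a1*, *Pcsk1n*, *Mrpl54*, *Ap2s1* and *Alkbh6*. *Cox6a1*, a subunit of cytochrome c oxidase at chr5:115345642-115348981 (minus strand, GRCm38), had 37.0, 35.9 and 40.5 CPM at ZT2 and 1041, 953 and 1010 CPM at ZT14 (-4.73 ± 0.22, adjusted p = 5.1e-10). *Alkbh6*, of the AlkB dioxygenase family, had 5.54, 4.6 and 4.01 CPM against 152, 150 and 142 CPM (-4.97 ± 0.26, adjusted p = 1.09e-09). *Pcsk1n*, described above, lies at chrX:7919822-7924410 (plus strand), *Mrpl54* (-3.46) encodes a mitochondrial ribosomal protein and *Ap2s1* (-4.62) a clathrin adaptor subunit. Replicates of these genes lay close together within each timepoint and far apart between them, which the choice by small p-value and lack of overlap itself asks for. The sequence before the RefSeq starts of *Cox6a1* and *Pcsk1n* is shown because these genes head the list. For *Cox6a1* this start lies inside the gene range given above, which is from GENCODE, so the stretch holds some bases of that range. None of the searched motifs lay in either stretch.
Cox6a1 upstream, chr5:115348959-115349208, minus strand: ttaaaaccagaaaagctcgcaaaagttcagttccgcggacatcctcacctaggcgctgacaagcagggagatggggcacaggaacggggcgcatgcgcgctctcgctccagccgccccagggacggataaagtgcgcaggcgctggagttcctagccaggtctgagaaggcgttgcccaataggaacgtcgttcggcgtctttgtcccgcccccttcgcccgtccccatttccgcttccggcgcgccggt
Pcsk1n upstream, chrX:7919572-7919821, plus strand: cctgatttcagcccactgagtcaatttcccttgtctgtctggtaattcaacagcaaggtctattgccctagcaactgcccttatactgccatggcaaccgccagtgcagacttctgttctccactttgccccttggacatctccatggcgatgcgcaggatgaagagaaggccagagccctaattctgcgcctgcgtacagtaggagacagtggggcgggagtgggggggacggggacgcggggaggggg

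Towards ZT2, the smallest p-values were those of *Fabp7*, *Eef1a1*, *Rasl11b*, *Gm1821* and *Rpl6*. *Fabp7*, a fatty acid binding protein of astrocytes and radial glia at chr10:57784881-57788450 (plus strand), had 324, 221 and 211 CPM at ZT2 and 29.4, 53.9 and 40.4 CPM at ZT14 (2.61 ± 0.21, adjusted p = 1.16e-07). *Rasl11b*, a small GTPase, had 139, 155 and 134 CPM against 26.8, 20.6 and 21.6 CPM (2.63 ± 0.24, adjusted p = 5.01e-07). *Eef1a1*, the elongation factor that brings transfer RNAs to the ribosome, had 6796, 5763 and 5043 CPM against 1936, 1771 and 1783 CPM (1.68, adjusted p = 4.84e-07). All libraries of these genes were higher at ZT2. *Gm1821* (2.13) is a transcribed processed pseudogene and can share reads with its parent gene.

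By size, the 10 largest differences towards ZT14 among genes with at least 5 CPM at the higher timepoint and no overlap between the timepoints included *Thop1* (-6.67), a peptidase that cleaves neuropeptides, *Rex1bd* (-6.37), *Flywch1* (-6.23), *Mib2* (-5.77), a ubiquitin ligase, and *Yjefn3* (-5.58), next to *Gadd45g*, *Npas4*, a pair of mitochondrial transfer RNA genes and the histone pseudogene *Hist1h2al*. *Thop1* had 0.509, 0.258 and 0.154 CPM at ZT2 and 37.1, 26.8 and 27.5 CPM at ZT14. *Hist1h2al* had 0 reads at ZT2 and 918 at ZT14, which makes it at least 191-fold higher at ZT14 when 3 reads over the ZT2 libraries are taken as the floor. Reads of histone copies can be exchanged between near-identical genes. None of these 10 calls was lost when any 1 library was left out.

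By the same rule and minimum of 5 CPM, the 10 largest differences towards ZT2 were smaller, and 5 of the 10 calls depended on single libraries. Next to *Prok2*, *Rasl11b*, *Fabp7* and *Dusp4* they included *Akr1c21* (4.15), *Crybg1* (3.44), the receptor gene *Pgr15l* (3.31), the class I-like gene *H2-M3* (2.70) and *Arhgap40* (2.54). *Pgr15l* had 6.56, 9.47 and 8.79 CPM at ZT2 and 0.669, 0.464 and 1.35 CPM at ZT14, without overlap. The 5 calls that were lost without at least 1 library reached an adjusted p of up to 0.129. *H2-M3* was lost without ZT14 replicate B (0.0587). *Akr1c21* was lost without ZT14 replicate A or B or ZT2 replicate A or B, *Arhgap40* without ZT14 replicate B or C or ZT2 replicate B, and *Crybg1* in 13 of the 18 fits.

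Among the lists, cytosolic ribosomal proteins had the highest share of genes called higher at ZT2. The counts of this and the following lists are to be read against all tested genes, of which 8.80% were higher at ZT2 and 15.0% higher at ZT14. Of 83 cytosolic ribosomal protein genes, 56 were higher at ZT2 and 5 were higher at ZT14, with a median log2 difference of 0.81 against -0.05 over all genes. *Rps27*, of the small subunit, had 338, 216 and 227 CPM at ZT2 and 41.9, 61.0 and 52.9 CPM at ZT14 (2.33 ± 0.32, adjusted p = 3.92e-05), and *Rpl9* (2.00) and *Rpl6* (1.74) of the large subunit followed the same direction. The exceptions included *Rpl13*, with 14.9, 13.6 and 10.1 CPM at ZT2 and 95.5, 116 and 86.7 CPM at ZT14 (-2.95), the stalk protein *Rplp2* (-1.45) and the pseudogene-like copy *Rps4l* (-3.14). Ribosomal protein genes have many processed pseudogenes, so single values are uncertain where the counting could split reads. Translation factors, with a median of 0.23, went both ways, with 19 of 64 higher at ZT2, as for the helicase *Eif4a2* (1.26), and 11 higher at ZT14. The latter included the scaffold *Eif4g1* (-3.39) with 5.15, 11.6 and 10.1 CPM against 106, 97.5 and 79.1 CPM, and *Eif1* (-2.77).

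**Figure D2:**
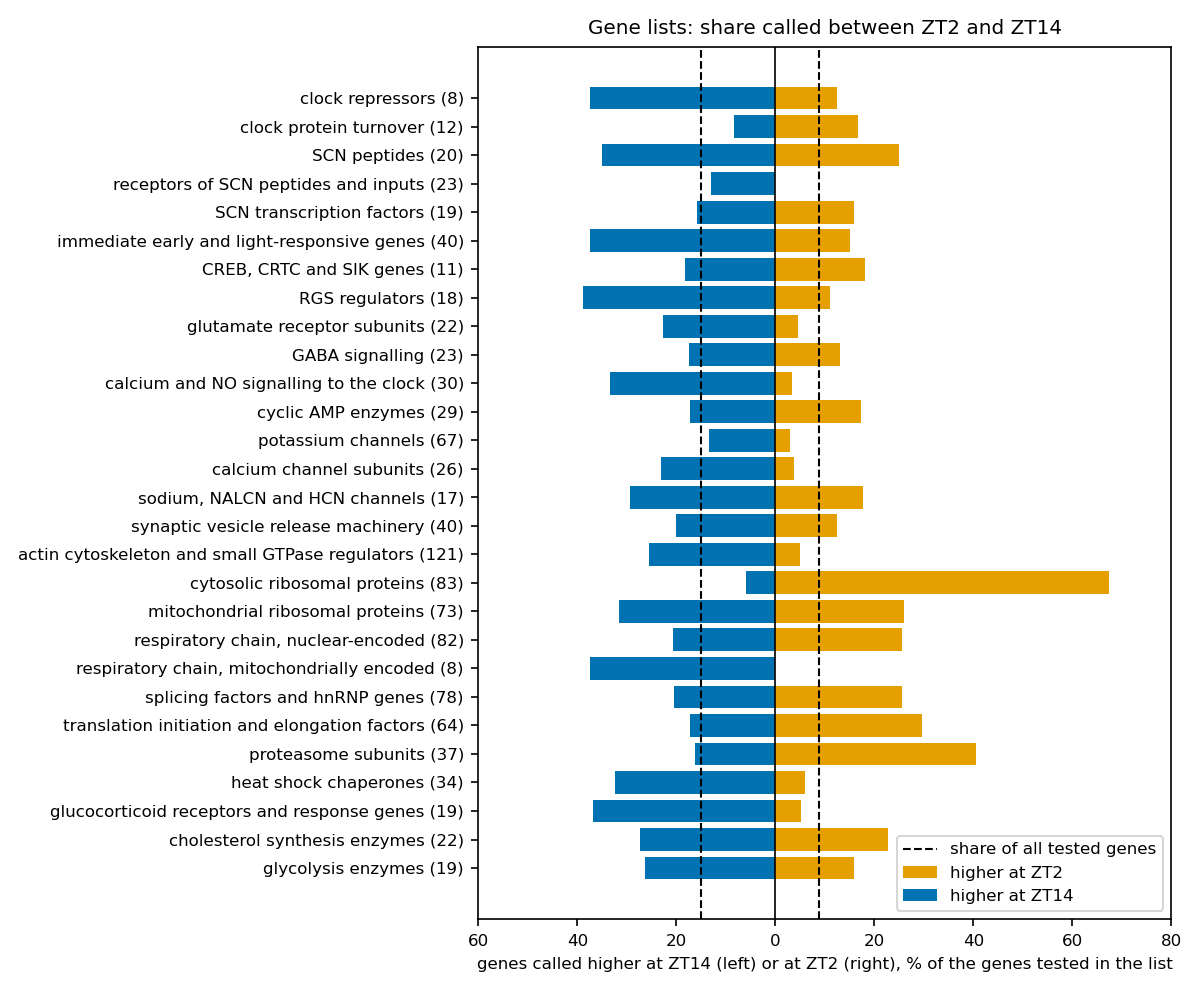
Share of the tested genes of each list (vertical axis, number tested in brackets) that were called higher at ZT14 (bars to the left) or higher at ZT2 (bars to the right), in percent, with dashed lines at the shares of all tested genes, 15.0% and 8.80%. Cytosolic ribosomal proteins reach furthest to the right with 56 of 83, while heat shock chaperones, calcium and NO signalling and immediate early genes lie mostly to the left.

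Proteasome subunits, with a median of 0.52, were called higher at ZT2 for 15 of 37 genes, such as *Psma5* with 237, 213 and 190 CPM against 94.4, 97.2 and 102 CPM (1.12), and higher at ZT14 for 6, such as the regulatory subunit *Psmd8* (-3.04). The 15 became 9 without ZT14 replicate C, ZT2 replicate A or ZT2 replicate B. Splicing factors and hnRNP genes divided nearly evenly, with 20 of 78 higher at ZT2, among them *Srsf5* (476, 454 and 494 CPM against 120, 161 and 179 CPM, a difference of 1.63) and *Hnrnpa1* (1.52). The 16 higher at ZT14 included the U1 component *Snrpa* (-3.95). Without ZT14 replicate A or C the 20 became 13, and without ZT2 replicate A they became 12. The called shares were 56.8% for the proteasome and 46.2% for the splicing list, against 23.8% of all genes.

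Genes of the mitochondria were divided too. Of 82 nuclear-encoded respiratory chain genes, 21 were higher at ZT2, such as *Cox7c* (0.96), and 17 were higher at ZT14, such as *Uqcrc1* of complex III with 47.3, 56 and 61.2 CPM against 728, 577 and 747 CPM (-3.64). The 21 became 11 without ZT14 replicate A and 13 without ZT2 replicate A. Of 73 mitochondrial ribosomal proteins, 19 were higher at ZT2, such as *Mrps33* (1.15), and 23 were higher at ZT14, such as *Mrpl34* (-4.13). Of 8 mitochondrially encoded respiratory genes tested, 0 were higher at ZT2 and 3 were higher at ZT14, among them *mt-Co3* (-2.60) and *mt-Nd3* (-1.72). In the order given, 46.3%, 57.5% and 37.5% of these mitochondrial lists were called, against 23.8% of all genes. The median of the mitochondrial ribosomal, splicing and mitochondrially encoded lists changed sign under upper-quartile scaling, so no direction is given for these lists as a whole.

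Of 34 heat shock chaperones and factors, 2 were higher at ZT2, 11 were higher at ZT14 and 21 did not pass. The called share was 38.2%, against 23.8% of all genes. The median of the list was -0.19 and turned to 0.03 under upper-quartile scaling. The co-chaperone *Dnajb1* had 23.9, 30.6 and 21.4 CPM at ZT2 and 247, 187 and 202 CPM at ZT14 (-3.07), and the factor *Hsf1*, which drives chaperone genes, had 13.2, 10.5 and 11.8 CPM against 64.3, 47.6 and 56.2 CPM (-2.24). *Hsp90aa1* (0.62) went the other way. Of the cold-inducible RNA-binding proteins, *Rbm3* had 61.1, 46.3 and 51.6 CPM at ZT2 and 19.3, 29.5 and 26.6 CPM at ZT14 (1.07 ± 0.29, adjusted p = 0.0099), and was lost without ZT14 replicate A (0.0576), while *Cirbp* did not pass. Glucocorticoid-responsive genes were higher at ZT14 in 7 of 19 cases and at ZT2 in 1, with *Ddit4* (-3.03) and *Nfkbia* (-2.70), inhibitors of mTOR and NF-kB signalling, the named ones. Cholesterol synthesis genes were higher at ZT2 for 5 of 22, as for *Fdps* (1.32), and higher at ZT14 for 6, as for *Sqle* (-2.01) and the master regulator *Srebf2* (-2.08). Of 19 glycolysis genes, 3 were higher at ZT2 (*Pgk1*, 1.10) and 5 at ZT14 (*Hk1*, -2.79), but under the size factors of DESeq2 or upper-quartile scaling 9 were higher at ZT2 and 4 at ZT14. The median of the cholesterol list also turned in sign under these scalings, from -0.08 to 0.04 and 0.14. Of the glucocorticoid, cholesterol and glycolysis lists, 42.1%, 50% and 42.1% were called, respectively.

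Glutamate receptors (27.3% called) and GABA signalling genes (30.4%) lay near the 23.8% called of all genes, while genes of calcium and nitric oxide signalling were called in 36.7% of cases. Of 22 glutamate receptor subunits, 1 was higher at ZT2 and 5 were higher at ZT14, led by the obligatory NMDA subunit *Grin1*, with 5.54, 8.69 and 9.98 CPM against 97.1, 85.3 and 87.9 CPM (-3.48 ± 0.27, adjusted p = 7.73e-08). GABA, the transmitter of nearly all SCN neurons, had 3 of 23 signalling genes higher at ZT2, such as the receptor subunit *Gabrg1* (1.39), and 4 higher at ZT14, such as the extrasynaptic subunit *Gabrd* (-3.58) and *Gabrb1* (-1.96). Under upper-quartile scaling the counts towards ZT2 and ZT14 became 4 and 2 for the glutamate receptors and 5 and 3 for the GABA genes, and with the GC offset 1 and 1 for the glutamate receptors and 4 and 3 for the GABA genes. Of 30 genes that carry calcium and nitric oxide signals to the clock, 1 was higher at ZT2 and 10 were higher at ZT14, with a median of -0.61, and the 10 became 6 without ZT2 replicate A. Among them the calcium-dependent kinase *Camk2b* had 74, 122 and 128 CPM at ZT2 and 520, 551 and 424 CPM at ZT14 (-2.20), and *Camk2a* was at -1.79. Of 29 cyclic AMP enzymes, 5 were called in each direction (34.5% called).

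Of all tested genes 8.80% were higher at ZT2 and 15.0% higher at ZT14, and the shares of the ion channel lists are to be read against these. Of 67 potassium channel genes, 2 were higher at ZT2, with *Kcnj10* of astrocytes (0.82) among them, and 9 were higher at ZT14, with *Kcnh3* (-3.01) the largest named, so that 16.4% were called against 23.8% of all genes. The median of the list was -0.65. The 9 became 4 without ZT2 replicate A and 5 without ZT2 replicate B. Calcium channel subunits were higher at ZT14 for 6 of 26, such as the T-type *Cacna1h* (-3.25) and the auxiliary *Cacnb3* (-1.98), and 1 was higher at ZT2, a called share of 26.9%. With the GC offset 3 potassium channels were higher at ZT2 and 4 at ZT14, and 1 calcium channel subunit in each direction. Of 17 sodium, leak and HCN channel genes, 3 were higher at ZT2, including the sodium leak channel *Nalcn* (1.18) that sets SCN excitability, and 5 were higher at ZT14. In the vesicle release machinery, 5 of 40 genes were higher at ZT2 (*Synpr*, 1.53) and 8 were higher at ZT14, with the calcium sensor *Syt5* at 10.2, 14.6 and 12.9 CPM against 339, 278 and 276 CPM (-4.57) and *Rab3a* at -2.46. With upper-quartile scaling the counts of that list were 8 in each direction. Regulators of actin and small GTPases were higher at ZT14 for 31 of 121 genes, such as *Arhgef10l* (-3.99), and higher at ZT2 for 6, such as *Cdc42* (0.76), with a median of -0.30, and the 31 became 18 without ZT2 replicate A. Beside these neuronal lists, the summed markers of telencephalic excitatory neurons without *Rorb* were also higher at ZT14 (1358 to 2081 against 564 to 725 CPM). With *Rorb* the sums overlapped. The part of these markers was not tested.

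Of the 14 astrocyte markers tested, 5 were higher at ZT2 and 1 was higher at ZT14 (42.9% called, against 23.8% of all genes). The glutamate transporter *Slc1a3* (0.93) and *Ndrg2* (1.02) were higher at ZT2, while the filament gene *Gfap* had 70.5, 113 and 264 CPM at ZT2 and 309, 283 and 404 CPM at ZT14 (-1.16 ± 0.37, adjusted p = 0.0305). Of the 13 oligodendrocyte markers (53.8% called), 1 was higher at ZT2 and 6 were higher at ZT14, including the myelin genes *Mag* (-2.04) and *Mbp* (-1.47). *Mbp* and *Gfap* were both lost without ZT14 replicate A or C or ZT2 replicate A or B, with adjusted p from 0.0515 to 0.131. Endothelial *Cldn5* (-2.75) was higher at ZT14 and the pericyte gene *Rgs5* (1.09) higher at ZT2. Choroid plexus RNA differed by library rather than by timepoint, since *Ttr*, its most abundant marker, was at 79.3 to 2294 CPM at ZT2 and 6.89 to 1348 CPM at ZT14.

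The comparison of ZT22 with ZT18 joins the neighbours of ZT2 and ZT14 with none of the same libraries, ZT18 replicate C standing apart from the others, and both of its timepoints lie in darkness. In it 3435 of 18941 genes (18.1%) were called, 1187 higher at ZT22 and 2248 higher at ZT18. Without ZT22 replicate B the 3435 became 2123, and without ZT22 replicate C 2071. Genes called in both comparisons with the same direction numbered 2381, which is 52.8% of the genes called between ZT2 and ZT14 and 69.3% of those called between ZT22 and ZT18, while 24 were called in opposite directions. Of the 1204 genes higher at ZT14 by a log2 difference of at least 2, 869 (72.2%) were also called higher at ZT18 than at ZT22, with medians of -2.92 and -2.31. Of the 91 genes higher at ZT2 by at least 2, 22 (24.2%) were also called higher at ZT22 than at ZT18, with medians of 4.24 and 1.08.

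**Figure D3:**
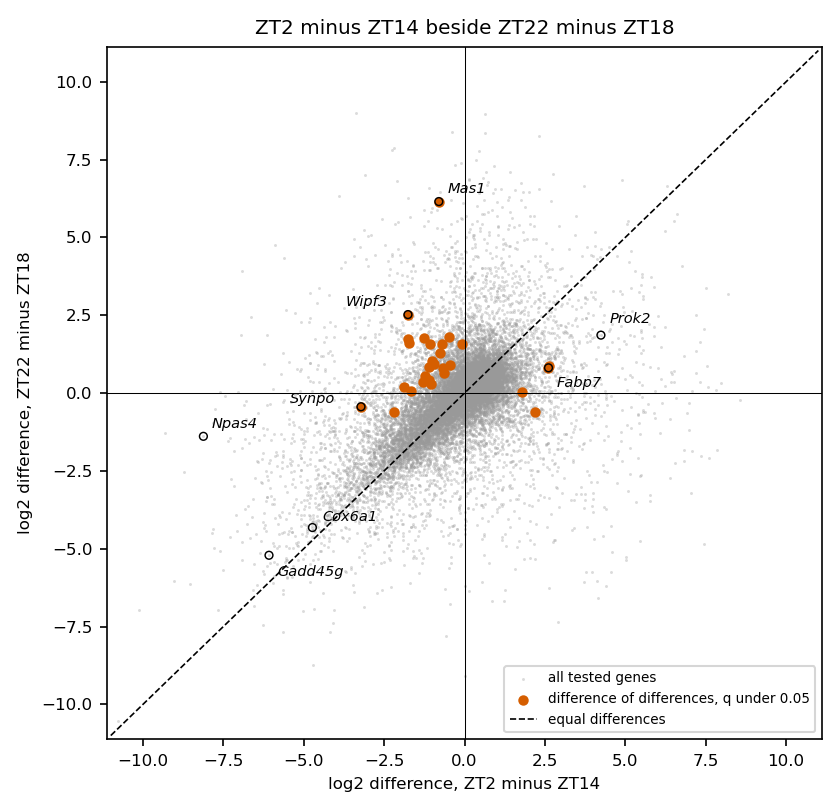
Log2 difference of ZT2 minus ZT14 (horizontal axis) and of ZT22 minus ZT18 (vertical axis), with a grey point for each tested gene, an orange point for the 28 genes called by the test of the difference between the comparisons, and a dashed line where both differences are equal. *Cox6a1* (-4.73 and -4.32) lies next to the line, *Prok2* (4.24 and 1.86) to the right of it and *Mas1* far above it.

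Several genes higher at ZT14 had values of like size in both comparisons. *Cox6a1* had -4.73 between ZT2 and ZT14 and -4.32 between ZT22 and ZT18, *Alkbh6* -4.97 and -5.16, *Pcsk1n* -3.82 and -3.32, *Crtc1* -4.73 and -4.26, *Syt5* -4.57 and -3.73, and *Gadd45g* -6.08 and -5.21. *Avp* (-2.17 and -2.20), *Grp* (-1.62 and -1.63) and *Per2* (-1.40 and -1.36) did so too. Of the 21 clock genes only *Per2* and *Dbp* (1.76 and 0.92) were called between ZT22 and ZT18. For *Bhlhe41* the values were 1.53 and -0.20, for *Rorb* 1.59 and 0.40, for *Nr1d2* 1.61 and 0.29, for *Cry2* -1.38 and -0.67, for *Crem* 1.67 and 0.28, for *Sik1* 1.57 and 0.07, for *Nms* 1.71 and 0.48 and for *Rgs16* 1.58 and 0.54. The second value passed the test for none of these 8 genes, but that alone does not show that the comparisons differ, and the test of the difference, given next, called none of them (*Bhlhe41*, 1.74, adjusted p = 0.0691). Ribosomal protein genes were called higher at ZT22 than at ZT18 for 25 of 83 and lower for 7, with a median of 0.24 against 0.81 between ZT2 and ZT14. Of 67 potassium channels, 4 were higher at ZT22 and 0 higher at ZT18, and of 40 vesicle release genes 13 and 2. These counts are to be read against 1187 and 2248 of all 18941 genes tested.

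The difference between the comparisons, (ZT2 minus ZT14) minus (ZT22 minus ZT18), was tested in the same fit, where a shift common to the libraries of a cluster cancels on the log scale. It called 28 genes (0.148%), 4 positive and 24 negative, and 24 of the 28 also differed between ZT2 and ZT14. In 22 of them the value was negative between ZT2 and ZT14 and positive between ZT22 and ZT18. The negative ones include neuronal genes such as the vesicular glutamate transporter *Slc17a7*, the RNA-binding proteins *Rbfox1* and *Rbfox3*, the calcium pumps *Atp2b1* and *Atp2b2*, the adenylyl cyclase *Adcy1*, the IP3 receptor *Itpr1*, the kinase *Camk2b* and the immediate early gene *Egr1*. *Rbfox1* had 40.3, 76.3 and 101 CPM at ZT2, 275, 247 and 199 CPM at ZT14, 116, 219 and 217 CPM at ZT22 and 49.5, 64.4 and 68 CPM at ZT18 (difference -3.33 ± 0.51, adjusted p = 0.0262). It was thus low at ZT2 and ZT18 and high at ZT14 and ZT22. *Slc17a7* had 19.3, 12.3 and 22 CPM at ZT2, 49.5, 50.7 and 82.8 CPM at ZT14, 21.5, 79.8 and 54.4 CPM at ZT22 and 11, 18.4 and 17.1 CPM at ZT18 (-3.51 ± 0.56, adjusted p = 0.0262). Because *Slc17a7* also marks telencephalic excitatory neurons, the sum of that list without *Rorb* is given for all 4 timepoints, at 564 to 725 CPM (ZT2), 1358 to 2081 (ZT14), 561 to 1346 (ZT22) and 509 to 762 (ZT18). With *Rorb* the sums were 1666 to 1881, 1663 to 2439, 1000 to 1914 and 914 to 1121 CPM in the same order. The part of these markers in the 28 genes was not tested.

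**Figure D4:**
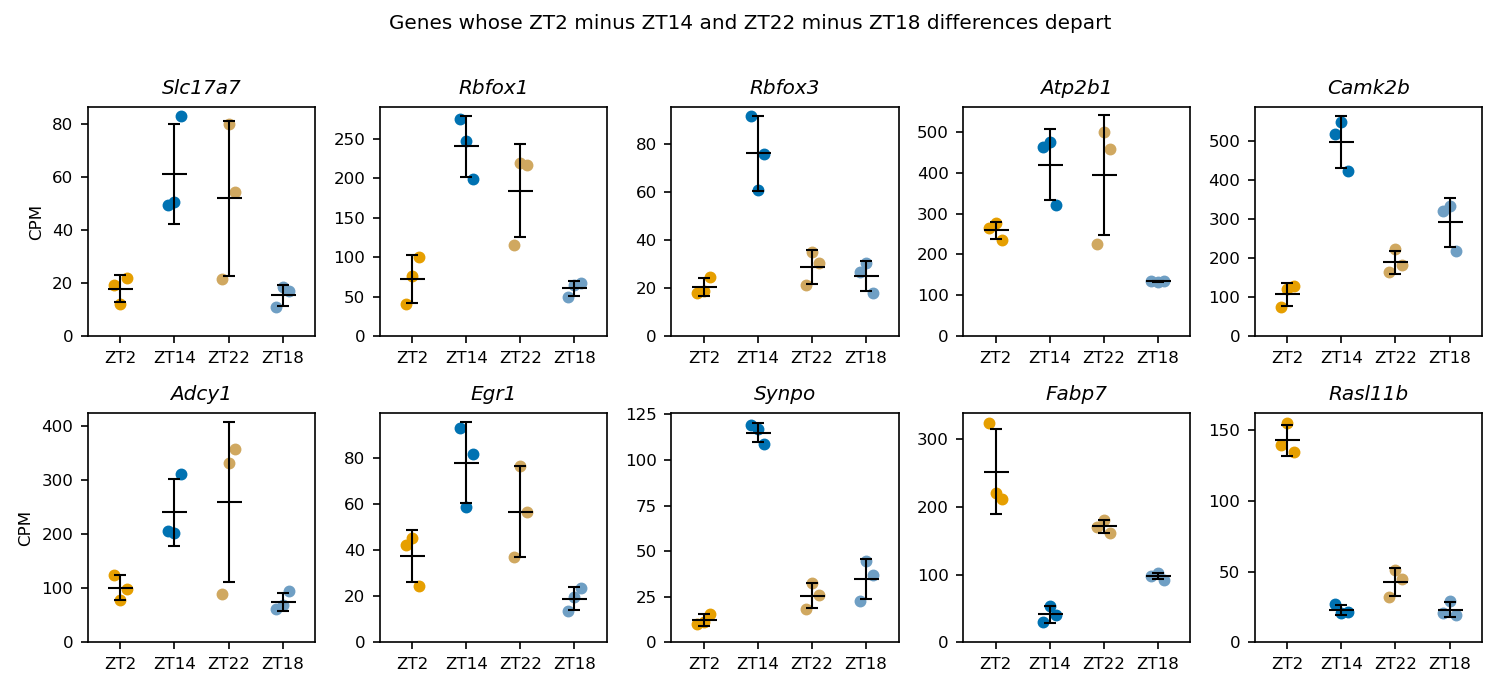
Level in CPM (vertical axes from 0) of 10 genes called by the test of the difference between the comparisons, with points for the 3 replicates of ZT2, ZT14, ZT22 and ZT18 and bars with whiskers for their means ± SD. The means of *Rbfox1*, *Slc17a7*, *Adcy1* and *Egr1* are higher at ZT14 and ZT22 than at ZT2 and ZT18, while *Fabp7* has its highest mean at ZT2.

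The positive ones were *Fabp7* (1.80), *Rasl11b* (1.75), *Fndc9* (1.76) and the antisense gene *Gm16062* (2.80), which overlaps *Cops3* and cannot be told apart from it without strand. *Fndc9* had 163, 220 and 204 CPM at ZT2 against 49.7 to 63.2 CPM at ZT14, 55.8 to 80.7 CPM at ZT22 and 50.8 to 88.3 CPM at ZT18, so it was high at ZT2 among these 4 timepoints. The count of 28 was unstable. It was 0 in 6 of the 18 fits that left out 1 library, namely without ZT2 replicate A or B, ZT14 replicate A, ZT18 replicate B or ZT22 replicate B or C, where 1586 to 2123 genes had an unadjusted p under 0.05. Leaving out ZT14 replicate B or C gave 1 gene, ZT2 replicate C gave 2, while there were 5 without ZT18 replicate A, 9 without ZT10 replicate B, 104 without ZT6 replicate C and 118 without ZT22 replicate A, and DESeq2 called 469.

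Base composition moved with the difference between ZT2 and ZT14. The median GC content of the transcripts was 46.1% for genes higher at ZT2, 54.7% for genes higher at ZT14 and 49.7% for all tested genes. Among the 10% of genes lowest in GC, 284 were higher at ZT2 and 103 higher at ZT14, with a median difference of 0.40. Among the 10% highest in GC, 19 were higher at ZT2 and 787 were higher at ZT14, with a median of -1.48. Between ZT22 and ZT18 the medians of the same sets were 0.18 and -0.93. In a fit with an offset for GC content, 1698 genes were higher at ZT2 and 1997 higher at ZT14, and 3025 of the 4508 genes kept call and direction. *Per2* (-0.92, adjusted p = 0.0676), *Avp* (-0.51, 0.225), *Egr1* (-0.01, 0.995), *Vip* (0.59, 0.1) and *Nfil3* (0.0947) were no longer called under the offset, and *Per1* (0.32) turned in sign. Ribosomal protein genes were then higher at ZT2 for 59 of 83 and higher at ZT14 for 4, and immediate early genes were higher at ZT2 for 8 and at ZT14 for 10 of 40. The part of GC content in single genes was not tested.

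**Figure D5:**
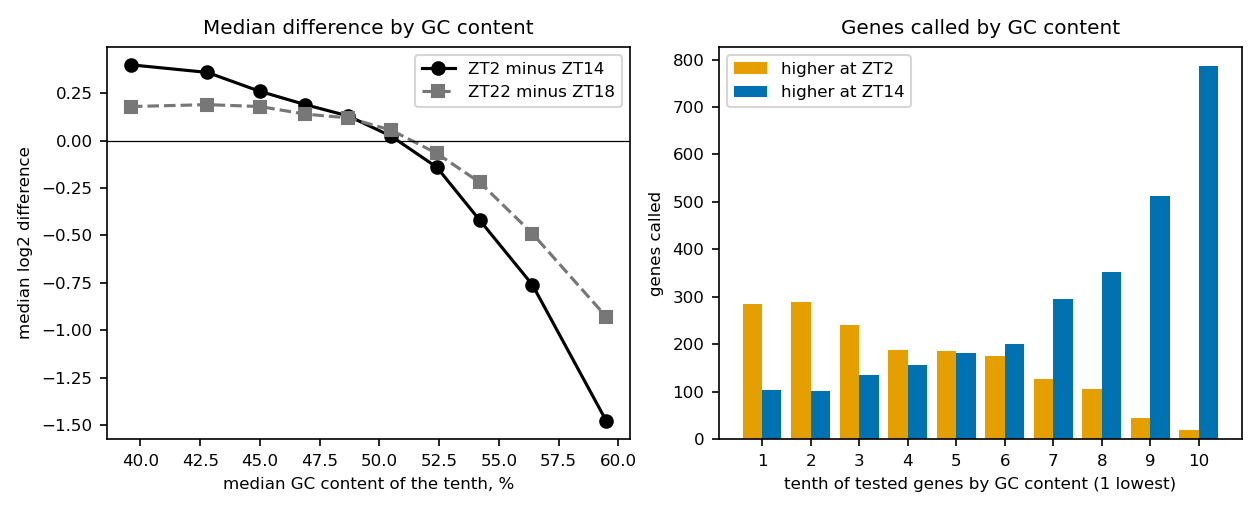
Left, median log2 difference of ZT2 minus ZT14 (circles) and of ZT22 minus ZT18 (squares) against the median GC content in percent of each of 10 equal groups of the tested genes ordered by GC, and right, the number of genes called in each direction in the same groups, with 1 the lowest in GC. The median falls from 0.40 in the lowest group to -1.48 in the highest for ZT2 minus ZT14, and the genes called higher at ZT14 number 103 and 787 in these groups.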

How the data were processed

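The 54 samples are 3 technical replicates of each of 18 replicates, by their titles. Per the labels and methods, the authors amplified the RNA with the SMARTer protocol (strand not given in the sources used here), aligned reads with GSNAP to mm10 (GRCm38) and counted them per Ensembl gene with HTSeq 0.5.4p1. The authors deposited whole-number read counts of 30031 genes, not normalized, with a column for each pool. The technical replicates were taken as already combined in these columns. A further deposited table of 31077 genes holds normalized signal, the counts divided by a size factor per library (DESeq2), from which whole reads were recovered. In the 6 libraries compared, the tables gave the same number of reads for 94.7% to 96.0% of the genes they share, and the counts were used. The share was 94.9% to 96.3% at ZT18 and 95.0% to 95.4% at ZT22. At ZT6 and ZT10, which enter the estimate of the spread, it was only 41.4% to 47.1% and 36.8% to 41.1%. With the recovered reads 4578 genes differed between ZT2 and ZT14.

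Groups were taken from the labels. The 18941 genes with a read in more than 6 libraries were tested in edgeR 4.0.16 (R 4.3.3) with TMM scaling, 1 quasi-likelihood fit over 18 libraries and Benjamini-Hochberg adjustment at 0.05, which was tested on simulated data. Contrasts were ZT2 minus ZT14, ZT22 minus ZT18 and the difference of both. Figures and summaries used Python 3.11.15 (pandas 2.3.3, numpy 2.4.6, matplotlib 3.10.9). Each pool is a separate sample of 5 animals, and replicates differed beyond the sampling noise of the counts. Intervals cover counting error only, and the counts are of amplified reads.

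The comparison and the gene lists were chosen with earlier results of these data known. Named genes are all members of the clock, peptide and immediate early lists, up to 3 members per direction of each other list (at least 5 CPM, no overlap), the 5 smallest p-values (no overlap) and the 10 largest differences (at least 5 CPM, no overlap) per direction, and the genes called by the difference of both. *Prkaa1* and *Six3* were named, and the E-box stretches picked, after their values were seen. Some genes that the rule selects are not reported here. Symbols come from GENCODE M21 (GRCm38), for 97.4% of identifiers. Promoter sequences come from RefSeq (GRCm38.p6).

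Alternatives were DESeq2 1.42.0, DESeq2 size factors or upper-quartile scaling in edgeR, no filter or at least 10 reads in 3 libraries, the compared libraries alone, the pool letter as a block, the recovered reads, a minimum log2 difference of 1 and leaving out each library. A GC offset and a fit of 12 libraries without ZT6 and ZT10 were added after seeing the data.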

Additional observations from a re-analysis of the deposited data

Results flagged for a closer look

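In 28 genes the difference between ZT2 and ZT14 departed from that between ZT22 and ZT18 by the test of the difference itself in the edgeR fit (log2 values below, adjusted p from 0.0262 to 0.0463). The 24 negative values were -6.95 for *Mas1*, -4.28 for *Wipf3*, -3.51 for *Slc17a7*, -3.33 for *Rbfox1*, -3.03 for *Adcy1*, -2.78 for *Synpo*, -2.64 for *Egr1*, -2.26 for *Cnr1*, -2.25 for *Atp2b1*, -2.10 for *Rbfox3*, -2.04 for *Ccnd2* and for *Rgs7bp*, -1.94 for *Lynx1*, -1.87 for *Itpr1*, -1.79 for *Mast3*, -1.73 for *Srcin1*, -1.64 for *Atp2b2* and for *Sort1*, -1.58 for *Camk2b*, -1.50 for *Dnm1*, -1.49 for *Slc12a5*, -1.36 for *Syt1*, -1.32 for *Nedd4l* and -1.25 for *Cbx6*. The 4 positive values were 2.80 for *Gm16062*, 1.80 for *Fabp7*, 1.76 for *Fndc9* and 1.75 for *Rasl11b*. Several of these genes have roles at synapses or in membrane calcium handling, such as the actin-binding protein *Synpo* of dendritic spines, the vesicle calcium sensor *Syt1*, the dynamin *Dnm1* and the cannabinoid receptor *Cnr1*. *Mas1*, an angiotensin-related receptor, had 3.22, 4.13 and 3.28 CPM at ZT2, 6.05, 6.1 and 6.41 CPM at ZT14, 8.3, 22 and 17.2 CPM at ZT22 and 0.48, 0.128 and 0 CPM at ZT18, so its value came mainly from ZT22 against ZT18 (6.15) and not from ZT2 against ZT14 (-0.80, adjusted p = 0.472). *Cnr1* (-0.48, adjusted p = 0.272) and *Syt1* (-0.46, adjusted p = 0.0655) did not differ between ZT2 and ZT14 by the test either. For *Slc17a7* and *Adcy1*, ZT22 replicate A stood below the other ZT22 libraries (21.5 against 79.8 and 54.4 CPM, and 89.8 against 330 and 357 CPM). Without ZT22 replicate A the count of 28 became 118.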

How the results depend on the processing

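The 4508 genes that differed numbered 3195 to 5247 when 1 library was left out, the genes higher at ZT2 1088 to 2161, those higher at ZT14 2107 to 3202, those between ZT22 and ZT18 2071 to 4094, and those of the difference of both 0 to 118. The lowest values for ZT2 came without ZT2 replicate A (1088) and for ZT22 against ZT18 without ZT22 replicate C (2071). The 1666 genes higher at ZT2 became 2708 with DESeq2, 2598 with upper-quartile scaling and 672 when a log2 difference of at least 1 was asked for. The 28 genes of the difference of both became 469 with DESeq2, 110 without the filter, 52 with the recovered reads, 17 with size factors, 13 with upper-quartile scaling, 5 with the GC offset, and 4 each with the compared libraries alone and with the 12 libraries. Of 178 named values, the GC offset left 148 on the same side, ended 23 calls, made 2 and turned 5 in sign, namely *Jund* (0.86), *Mast3* (0.12), *Per1* (0.32), *Slc12a5* (0.50) and *Vgf* (0.44). Among these 5, only *Jund* passed the test in the new direction (adjusted p = 0.00424). Upper-quartile scaling ended 12 calls, among them *Per1* and *Egr1*, and the other planned settings that kept all libraries compared ended at most 8. Leaving out 1 library ended up to 17 calls (ZT2 replicate A), 12 to 15 for the other libraries compared and 0 to 3 for the rest. The cause was not tested, except that fewer libraries enter the smaller fits. Pool letters did not pair the libraries, since the correlations of same-letter deviations were -0.03, -0.03 and 0.04, and with the letter as a replicate block 4327 genes differed (1602 higher at ZT2 and 2725 at ZT14), 20 were called by the difference of both, and *Sst* (adjusted p = 0.0629) and *Rgs7bp* lost their call. With 3 pools a side, a difference in a single summed value cannot pass the threshold, and genes with few reads carry a wide error (median SE of the log2 difference 0.47).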
